A study of Mus musculus with 2 samples.

Results

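The metabotropic glutamate receptor genes were compared between RNA on the tagged ribosomes of cerebellar Purkinje cells and the RNA left behind by the purification. The genes were taken by their platform symbols. Described here are 7 genes, Grm2 to Grm8, of the 19503 genes with a value, each from 1 probe set. The mice carried the transgene Tg(Pcp2-L10a-Egfp), which places ribosomal protein L10a with a green fluorescent tag under the promoter of Pcp2, a gene of Purkinje cells. Translating ribosome affinity purification, or TRAP, uses antibodies to that tag to collect those ribosomes with the mRNA they carry. Both samples came from pooled cerebella of such mice at postnatal day 7, with no treatment listed: the TRAP sample is the RNA released from the beads, and the unbound sample is the RNA collected from what the beads did not hold. Both therefore carry the same transgene, and the labels do not say how many animals were pooled.

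Metabotropic glutamate receptors are G protein-coupled receptors of the class C family, which bind glutamate with a large extracellular domain and signal more slowly than the glutamate-gated channels. Class 1 receptors, such as Grm5, couple to Gq, phospholipase C and the release of calcium from internal stores. Class 2 (Grm2 and Grm3) and class 3 (Grm4, Grm6, Grm7 and Grm8) couple to Gi and Go proteins, which restrain adenylyl cyclase and, at many nerve endings, transmitter release. In the cerebellum Grm4 is known from granule cells and their parallel fibre endings, Grm2 and Grm5 from Golgi cells, Grm3 from glia, and Grm6 is best known from ON bipolar cells of the retina.

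The values are log2 expression values, 1 array per fraction, with a median over all probe sets of 6.92 for TRAP and 7.25 for unbound. With no replicate there is no error on any value and no test was run. A difference is the TRAP value minus the unbound value, and genes are described by whether they differed at least 2-fold. Levels of different probe sets are not compared, since probes bind with different strength. A floor was set at 7.079, the median over both arrays together. Genes above it on either array, 10524 in all or 54.0% of genes with a value, count as above the floor. This share stands beside each count of genes above the floor that follows. A gene that passes this floor on the strength of 1 array must differ between the arrays, so counts among genes above it are descriptions only. Pcp2, the gene whose promoter drives the tag, read 12.98 in TRAP and 11.65 in unbound. Markers of other cells also read above the floor in TRAP, such as Neurod1 of granule neurons at 10.14 and Fabp7 of glia at 12.27. A TRAP value was therefore not read as a level in Purkinje cells.

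Of the 7 receptor genes, 4 lay above the floor (Grm2, Grm3, Grm4 and Grm5), beside 54.0% of all genes. Each of these 4 read lower in TRAP than in unbound. Grm3, Grm4 and Grm5 differed at least 2-fold, so 3 of 4 were higher in unbound by 2-fold or more, beside 18.6% of all genes above the floor. Grm3 and Grm5 passed the floor on the unbound array alone, which itself requires a higher unbound value. The count is therefore a description only. None was higher in TRAP by 2-fold or more, beside 8.11% of all genes above the floor. When each array's median was subtracted these shares of all genes became 11.6% and 16.4%, and Grm3, Grm4 and Grm5 remained higher in unbound by 2-fold or more. At a threshold of 4-fold the count was 1, Grm3, beside 4.34% of all genes, and at 1.5-fold it was 4, beside 30.9%. Grm6, Grm7 and Grm8 lay below the floor on both arrays, with differences between -0.32 and 0.23. In RNA of a mixed tissue, fewer cells of a type and less RNA per cell cannot be told apart.

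**Figure D1:**
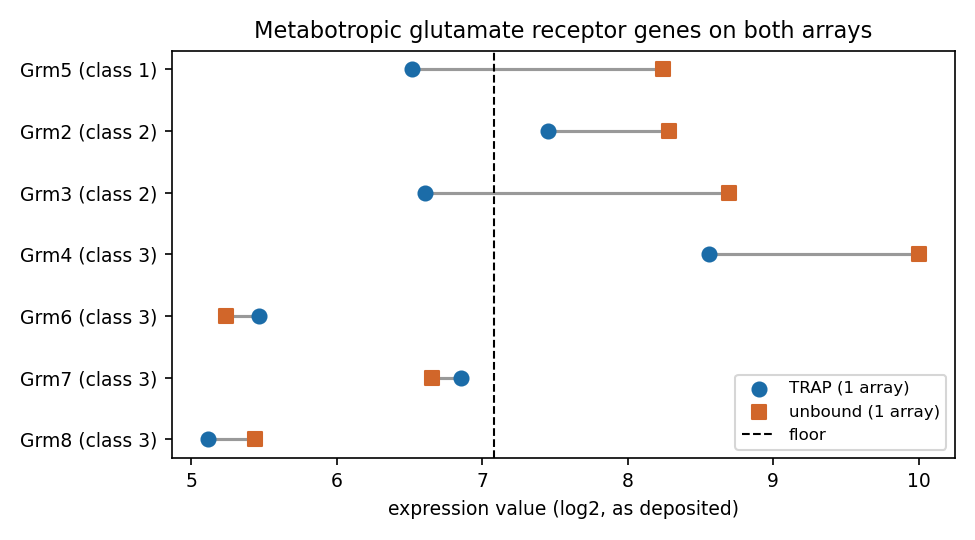
Log2 expression value of each receptor gene on the TRAP array (circles) and the unbound array (squares), 1 array each, with the floor of 7.079 as a dashed line. Grm2, Grm3, Grm4 and Grm5 have their square to the right of the circle, and all values of Grm6, Grm7 and Grm8 lie left of the floor.

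Grm5, a class 1 receptor, read 6.52 in TRAP and 8.24 in unbound. The TRAP value lay below the floor and the unbound value above it. The difference of -1.72 is a 3.30-fold higher value in unbound, and 7.05% of genes above the floor had a lower difference. Grm5 passed the floor on the unbound array alone, so this share is a description only. Because the TRAP value is below the floor, where the table gives no detection call, the size of the fold is uncertain. The median difference of all genes above the floor was -0.13, so Grm5 stood 1.60 below it.

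The class 2 receptors shared a direction and differed in size. Grm3, which responds to glutamate and to the peptide transmitter N-acetylaspartylglutamate, read 6.61 in TRAP and 8.70 in unbound. Its difference of -2.09, or 4.25-fold, was the lowest of the 7 receptor genes, and 3.71% of genes above the floor had a lower one. The TRAP value of Grm3 also lay below the floor. Grm3 thus passed the floor on the unbound array alone, so this share is a description only. Grm2, its closest relative in the family, read 7.45 in TRAP and 8.29 in unbound, with both values above the floor. Its difference of -0.84 is 1.78-fold, short of 2-fold, and 22.8% of genes above the floor had a lower one. The difference of Grm3 was lower than that of Grm2 by 1.25 on the log2 scale, a gap for which these 2 arrays give no error.

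The promoters of this pair are shown because Grm2 and Grm3 are the receptor genes above the floor that RefSeq's promoter table, build GRCm38.p6, holds, and because they differ in size within a class. Each line gives the 200 bases before the start of transcription, 5′ to 3′ on the gene's strand, with GC boxes (GGGCGG, searched on both strands, no other motif in capitals) in capitals.
Grm2, chr9:106656110-106656309, minus strand: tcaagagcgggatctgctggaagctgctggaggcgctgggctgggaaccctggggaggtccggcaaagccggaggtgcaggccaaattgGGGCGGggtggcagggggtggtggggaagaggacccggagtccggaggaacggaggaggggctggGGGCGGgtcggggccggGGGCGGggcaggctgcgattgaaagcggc
Grm3, chr5:9725353-9725552, minus strand: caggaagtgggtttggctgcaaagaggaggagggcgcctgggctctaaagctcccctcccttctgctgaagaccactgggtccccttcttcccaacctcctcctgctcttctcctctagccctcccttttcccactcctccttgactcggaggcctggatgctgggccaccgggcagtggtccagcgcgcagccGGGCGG
The Grm2 window holds 3 GC boxes and the Grm3 window 1, at the base next to the start. Of 27025 promoters of the same length, 31.3% hold at least 1. The Grm2 window has 72.0% G and C with 14 CpG dinucleotides, and the Grm3 window 64.5% with 7, against medians of 53.0% and 5 over all promoters. An E-box (CANNTG) is in neither window and in 57.9% of all promoters, and a TATA box (TATAAA) is in neither and in 10.6%. A CCAAT box (CCAAT, both strands) is in the Grm2 window and not in that of Grm3, and 30.1% of all promoters have one. These matches describe letters in a window, and the arrays do not measure binding. Of the 7 receptor genes 5 are in that table. Grm4 and Grm5 are not printed.

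Among class 3 receptors, Grm4 was the one above the floor. Grm4, the receptor of parallel fibre endings, read 8.56 in TRAP and 10.00 in unbound. Both values lay above the floor, by 1.48 and 2.93 on the log2 scale. The difference of -1.44 is a 2.72-fold higher value in unbound, and 10.1% of genes above the floor had a lower one. Of the 3 receptor genes that differed at least 2-fold, Grm4 is the one whose fold rests on values above the floor on both arrays.

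The other class 3 receptors read low on both arrays. Grm7, a presynaptic receptor with low affinity for glutamate, read 6.85 in TRAP and 6.66 in unbound, a difference of 0.20. It lay closest to the floor, by 0.22 in TRAP. Grm6, the retinal receptor, read 5.46 in TRAP and 5.24 in unbound, a difference of 0.23. Grm8, a further presynaptic receptor, read 5.12 in TRAP and 5.44 in unbound, a difference of -0.32. The 8979 genes below the floor on both arrays had a median difference of 0.17, and the central 95% of their differences ran from -0.95 to 0.71. Grm6, Grm7 and Grm8 all lay inside that range, and the largest of their folds was 1.25, for Grm8. Whether these transcripts were detected at all cannot be read from the table, which has no detection calls.

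**Figure D2:**
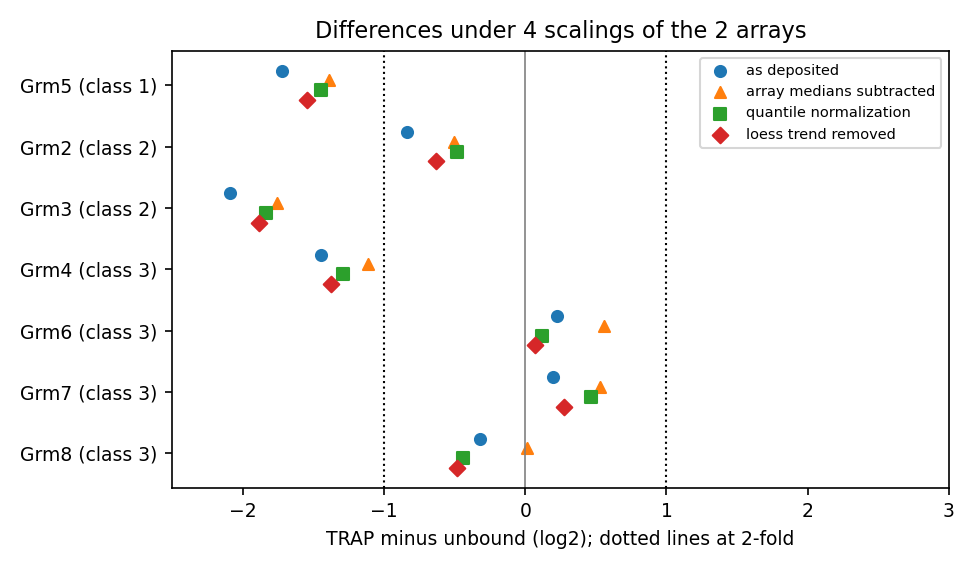
TRAP minus unbound (log2) for each receptor gene under 4 scalings of the 2 arrays, with dotted lines at 2-fold. Grm3, Grm4 and Grm5 stay left of the 2-fold line under all 4, Grm2 stays between it and 0, and Grm8 crosses 0 when the array medians are subtracted.

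The order of the differences was Grm3, Grm5, Grm4 and Grm2 among genes above the floor. Over the 4 scalings tried, the difference of Grm3 ran from -2.09 to -1.76, that of Grm5 from -1.72 to -1.39, and that of Grm4 from -1.44 to -1.11. Grm2 ran from -0.84 to -0.48 and did not reach 2-fold under any of them. Grm6 ran from 0.07 to 0.56 and Grm7 from 0.20 to 0.53, positive throughout, while Grm8 ran from -0.49 to 0.01. The median difference of genes above the floor, -0.13 as deposited, became 0.25 when the array medians were subtracted, and quantile normalization and removal of a loess trend gave 0.08 and -0.04.

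The receptors were set beside the genes they signal through. Over all genes above the floor, 18.6% were higher in unbound and 8.11% in TRAP by 2-fold or more. These shares stand beside each count below that was made on the values as deposited. With the array medians subtracted the shares were 11.6% in unbound and 16.4% in TRAP. Of 14 measured genes of the Gq pathway that class 1 receptors use, 11 lay above the floor, of which 3 were higher in TRAP by 2-fold or more and 2 in unbound. Their median difference was 0.44, against -0.13 for all genes above the floor. Prkcd, a protein kinase C isoform, differed by 2.65, Plcb3, a phospholipase C beta, by 2.10, and Dagla, the lipase that makes the endocannabinoid 2-arachidonoylglycerol, by 1.88 (9.79 in TRAP and 7.91 in unbound). Prkcb, another protein kinase C isoform, read 10.81 in TRAP and 12.26 in unbound, and Itpr2, an inositol trisphosphate receptor, 6.67 and 7.83, with the TRAP value below the floor. Among the 11, the G protein gene Gna11 had the smallest difference, 0.17. With the array medians subtracted the counts were 4 in TRAP and 1 in unbound, beside 16.4% and 11.6% of all genes above the floor. After quantile normalization or loess they were 3 and 1. Over all genes above the floor, 1262 of 10518 were higher in TRAP and 1439 in unbound after quantile normalization. After loess these numbers were 1003 and 1716 of 10508. So genes of the Gq pathway stood at both ends, and Grm5 had a lower difference than each of the 11. Grm5 and Itpr2 passed the floor on the unbound array alone, so this order is a description only.

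Genes of Gi and Go signalling, used by classes 2 and 3, read higher in unbound in 7 of 11 cases above the floor. The median difference of all genes above the floor was also negative, at -0.13. Of these 11 Gi and Go genes, from 16 measured, 3 were higher in unbound by 2-fold or more, beside 18.6% of all genes above the floor. None was higher in TRAP by 2-fold or more, beside 8.11% of all genes. The median difference of the list was -0.76. Gnai2, an inhibitory G protein alpha subunit, read 9.90 in TRAP and 11.75 in unbound. Gnai3, another such subunit, read 8.57 and 10.16. Kcnj6, a G protein-gated potassium channel subunit, read 7.12 and 8.61. Gnao1, the alpha subunit of Go, read 12.90 and 12.62, the smallest difference of these 11 genes at 0.28. With array medians subtracted the median of the list was -0.22, over 10 genes. The count of 3 was unchanged, beside 11.6% of all genes above the floor.

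Transcripts on the list of proteins that bind the receptors' C-terminal tails or extracellular domains were mostly higher in TRAP, 11 of the 13 above the floor. Of these 13, 5 were higher in TRAP by 2-fold or more and 1 in unbound, beside 8.11% and 18.6% of all genes above the floor. The median difference of the list was 0.79. Homer3, of the Homer family that links class 1 receptors to the postsynaptic scaffold, read 12.35 in TRAP and 10.29 in unbound. The scaffold genes Shank2 and Shank1 were 4.41-fold and 2.85-fold higher in TRAP. Grip2, a multi-PDZ adaptor, was 2.62-fold higher, with its unbound value below the floor, and Ncdn, which encodes the class 1 receptor partner norbin, was 2.13-fold higher. Homer2 was 3.01-fold higher in unbound, and Homer1, named after its value was seen, differed by -0.28, a sign that changed once the array medians were subtracted. Cyth2, an Arf exchange factor, had the smallest difference of the genes above the floor, 0.08. With the array medians subtracted 7 genes of the list were higher in TRAP by 2-fold or more, beside 16.4% of all genes.

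Genes that end receptor signalling were split. Of 8 above the floor, 2 were higher in TRAP by 2-fold or more and 1 in unbound, with a median of 0.27. Rgs8 and Rgs4, which speed up GTP hydrolysis by G proteins, read 12.72 against 11.22 and 9.92 against 8.54. Grk3, a G protein-coupled receptor kinase, read 7.17 in TRAP and 8.64 in unbound, close to Grm4 in its difference. Arrb1, an arrestin, differed by 0.09.

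**Figure D3:**
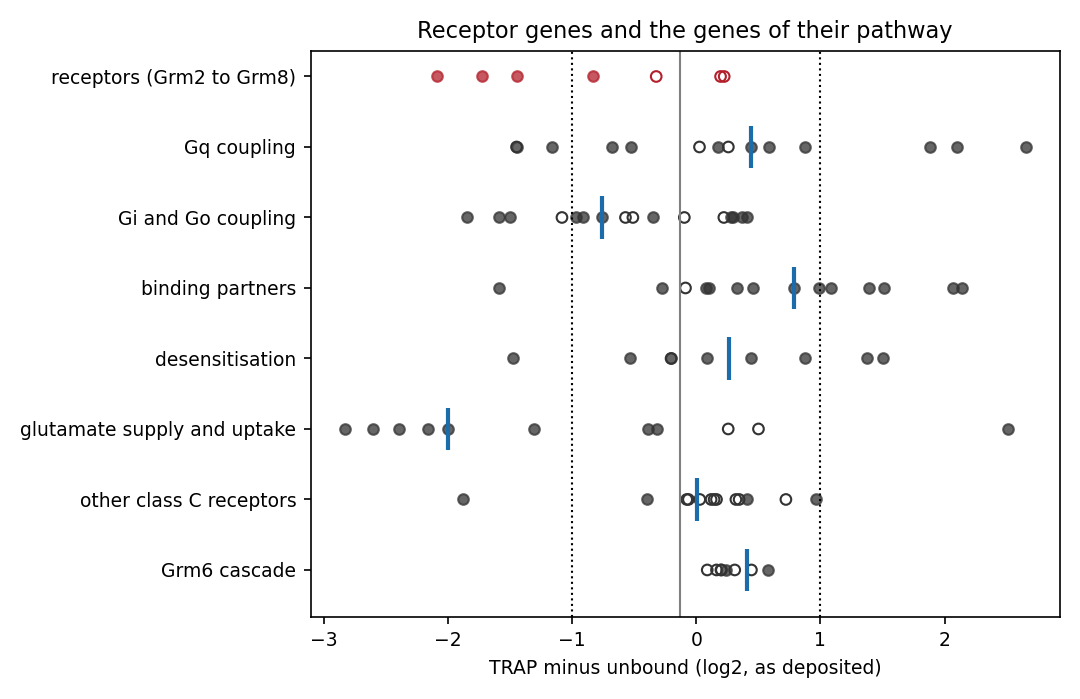
TRAP minus unbound (log2) for the receptor genes (red) and for genes of their pathway by list, filled when above the floor and open when below. Blue ticks are list medians over genes above the floor, the grey line is the median of all genes above the floor (-0.13), and dotted lines mark 2-fold. The 4 filled red points lie left of the grey line, while binding partners lie mostly to its right.

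Genes that supply and clear glutamate had the widest range of the pathway lists. Of 9 above the floor, 6 were higher in unbound by 2-fold or more and 1 in TRAP, with a median of -2.00. The vesicular glutamate transporters Slc17a6 and Slc17a7 were 7.11-fold and 4.46-fold higher in unbound. The glial uptake transporters Slc1a3 and Slc1a2 were likewise higher in unbound, by 6.09-fold and 4.00-fold, as was glutamine synthetase, Glul, by 5.24-fold. Slc1a1, another uptake transporter, was 2.48-fold higher in unbound. Slc1a6, the uptake transporter of Purkinje cells, read 10.79 in TRAP and 8.28 in unbound, the opposite direction. The TRAP values of Slc17a6, Slc1a2 and Slc1a1 lay below the floor. Of the measured genes of this list, 6 are also on a cell type marker list, and the 3 others above the floor had a median of -0.39. They include Rimkla, an enzyme that makes the Grm3 ligand N-acetylaspartylglutamate, which differed by -0.32 and changed sign once the array medians were subtracted.

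Other class C receptors were mostly below the floor. Of 13 measured, 4 lay above it, beside 54.0% of all genes, and 1 differed at least 2-fold. Gpr158 read 7.04 in TRAP and 8.92 in unbound, a difference of -1.88 with the TRAP value below the floor. Gprc5b, an orphan receptor, had the smallest difference of these 4, -0.39. The GABA-B receptor subunits Gabbr1 and Gabbr2, named after their values were seen, read higher in TRAP, at 11.41 against 10.45 and 10.76 against 10.35. The retinal cascade of Grm6 had 2 of 8 genes above the floor, beside the same 54.0%, and none at least 2-fold apart. The smaller difference was that of Rgs7, a G protein regulator also found in the brain, at 0.24. Trpm1, the channel that this cascade closes, was singled out after its values were seen and read 4.75 in TRAP and 4.44 in unbound, below the floor like Grm6.

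For each receptor gene above the floor, the genes of these lists with the nearest difference were found among 58 candidates. The likeness is the distance between single differences over 2 arrays, and among 58 candidates some gene is likely to lie close. Nearest to Grm3 were Slc17a7 and Slc1a2, at distances of 0.07 and 0.09. Nearest to Grm4 were Prkcb and Grk3, at 0.001 and 0.03. Grm5 lay nearest to Gnai2 and Gnai3 (0.12 and 0.13), and Grm2 to the adenylyl cyclase genes Adcy1 and Adcy2 (0.07 each). Of these nearest genes, Slc1a2 and Adcy2 passed the floor on the unbound array alone.

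Markers of most other cells in the tissue differed in the same direction as the receptors above the floor, and their part in the receptor differences was not tested. Purkinje cell markers read higher in TRAP in 14 of 14 cases, 6 by 2-fold or more, led by Gng13 and Slc1a6. With the array medians subtracted 13 were past 2-fold, beside 16.4% of all genes above the floor. The summed level of the list (log2 of the sum of unlogged values) was 16.10 in TRAP and 15.12 in unbound. A summed level compares the same list between the arrays, not lists with each other, and the highest values weigh most in it. All 12 granule neuron markers were higher in unbound by 2-fold or more, led by Cbln3 and Gabra6, with summed levels of 13.56 and 15.20. With the array medians subtracted 9 were past 2-fold, beside 11.6% of all genes above the floor. The median difference of the granule neuron markers was -2.05 as deposited. Granule progenitor markers had 4 of 8 higher in unbound by 2-fold or more, led by Top2a and Mki67, with summed levels of 11.57 and 12.80.

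Interneuron and Golgi cell markers share a list, and of these cells only Golgi cells were named above for Grm2 and Grm5. Of 9 above the floor, 6 were higher in unbound by 2-fold or more and 1 in TRAP. Kit, Slc6a5, Lgi2 and Nxph1 passed the floor on the unbound array alone. Tfap2b and Kit led, and the median of the list was -1.42, which is not a value of Golgi cells alone. The exception was Pvalb, singled out after its value was seen, which Purkinje cells also express and which read 12.91 in TRAP and 11.24 in unbound. It lifted the summed level of the list to 13.19 in TRAP, against 12.90 in unbound. Unipolar brush cell and nuclear neuron markers had 3 of 3 above the floor higher in unbound by 2-fold or more, led by Slc17a6 and Meis2, with summed levels of 8.97 and 11.37. Slc17a6 passed the floor on the unbound array alone.

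Astrocyte and Bergmann glia markers had 10 of 12 higher in unbound by 2-fold or more and none in TRAP, led by Gfap and Aqp4, with summed levels of 13.14 in TRAP and 14.55 in unbound. Their median was -2.07. Aqp4, Aldh1l1, Slc1a2 and Gja1 passed the floor on the unbound array alone. Hopx, a homeodomain gene named after its value was seen, read 10.36 against 9.42, and 1 gene of the list was past 2-fold toward TRAP after quantile normalization or subtraction of the array medians. Oligodendrocyte lineage markers had 9 of 9 above the floor higher in unbound by 2-fold or more, led by Enpp6 and Sox10. The list median was -1.93, and the summed levels were 10.48 and 12.42. Enpp6, Sox10, Pdgfra, Mog and Gpr17 had TRAP values below the floor, so they passed it on the unbound array alone. Cspg4, below the floor on both arrays, differed by -0.004. Of 8 microglia markers 2 lay above the floor, C1qb (-1.59) and Trem2 (-0.30, less than the 0.33 between the array medians), with summed levels of 9.04 and 9.62. Of 9 endothelial and mural markers 4 did, 2 of them higher in unbound by 2-fold or more, led by Acta2 and Rgs5, with summed levels of 9.97 and 10.99. C1qb, Trem2 and Acta2 likewise had TRAP values below the floor. No marker was at the lowest value of the arrays in either fraction.

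**Figure D4:**
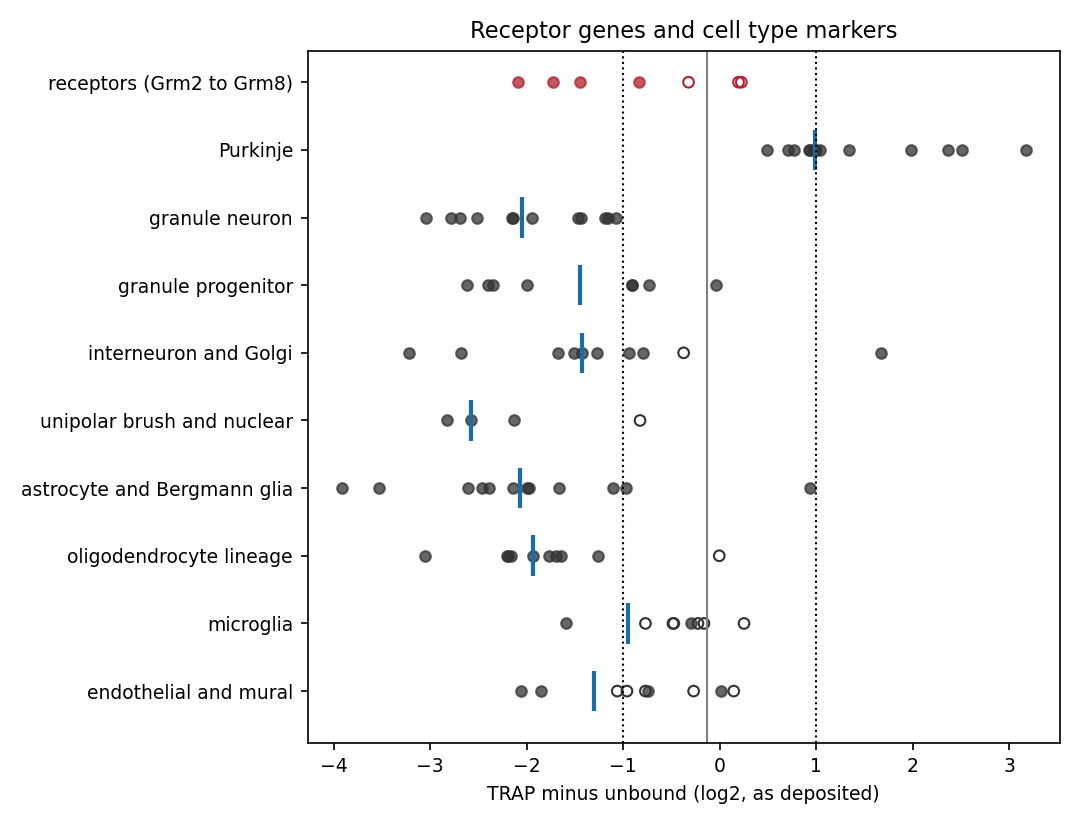
TRAP minus unbound (log2) for the receptor genes (red) and for cell type markers by list, filled when above the floor and open when below, with list medians as blue ticks, the median of all genes above the floor as a grey line and 2-fold as dotted lines. Purkinje markers lie right of 0. The filled receptor points lie within the ranges of the granule progenitor, interneuron and Golgi cell, and astrocyte and Bergmann glia markers. Grm2 lies within the astrocyte and Bergmann glia range only through Hopx.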

How the data were processed

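The deposited log2 values, 1 per array for each probe set, come from Affymetrix Power Tools, as the submitters' processing notes list. How the authors corrected background, normalized and summarised probes is not given in the sources used here, nor is the log base: natural logs would put the highest value at 847885, above the 65535 of a 16-bit scanner. The platform annotation supplied gene names: of 22097 probe sets, 20999 name 1 gene, 91 several (not used), and 1007 none here. Symbols were updated by Entrez identifier from RefSeq (GRCm38.p6), which matched 20959. Probe sets of a gene were averaged. The named genes are all receptor genes, list genes at least 2-fold apart and the gene with the smallest difference of each pathway list, the 2 largest differences of each marker list, Pcp2 and Rpl10a, and the nearest genes. Genes outside this rule were named after their values were seen. Rpl10a, the tagged protein's gene, differed by 0.54. The receptor genes and all lists were chosen with earlier results of these data known. Scalings, floors, thresholds and the choice of probe set were varied. Scripts (Python 3.11.15, statsmodels 0.14.6) were tested on simulated data, with changes placed only in genes of higher mean value than Grm2, Grm3 and Grm5. Recovery of those changes was required for rescaled values and not for values as deposited. Precision is limited by the number of arrays.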

Additional observations from a re-analysis of the deposited data

How the results depend on the processing

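With 1 array per fraction no library could be left out. No paired analysis was possible because each group holds 1 array. The count of receptor genes higher in unbound by 2-fold or more was 3 with the array medians subtracted and after quantile normalization. It was also 3 after removal of a loess trend (span 0.3) and with a floor applied to the mean value. With no floor or with the brightest probe set it was 3 too, but neither setting could change it. Each receptor gene has 1 probe set, and removing the floor adds only Grm6, Grm7 and Grm8, none of them 2-fold apart. The count was 1 (Grm4) with a floor at the 75th percentile of all values, which removed Grm2, Grm3 and Grm5. At a 4-fold threshold it was 1 (Grm3). At 1.5-fold it was 4. The count higher in TRAP was 0 under each of these settings. Grm8 turned from -0.32 to 0.0085 when the array medians were subtracted, and the cause is the constant shift between the arrays. No other receptor gene changed sign or crossed 2-fold. Over all genes above the floor, those higher in TRAP made up 30.4% of the genes at least 2-fold apart as deposited, 58.6% with the array medians subtracted, 46.7% after quantile normalization and 36.9% after loess. The table's lack of detection calls limits the folds of Grm3 and Grm5.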

Other observations

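Gene length, taken from RefSeq (GRCm38.p6) for 10521 of the 10524 genes above the floor, differed among the receptor genes and varied with the difference. Genes above the floor were put into 5 classes of equal size by length. The median difference was 0.25 in the shortest class and -0.47 in the longest, and 10.5% and 29.7% of their genes were higher in unbound by 2-fold or more. Grm5 (551 kb), Grm3 (240.1 kb) and Grm4 (91.4 kb) fell in the longest class, and Grm2 (11.6 kb) in the second shortest, whose median was 0.01 with 13.5% higher in unbound by 2-fold or more. The part of gene length in the receptor differences was not tested. Grm7 (922 kb) and Grm8 (860.0 kb), the longest receptor genes, lay below the floor.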
